A study of Mus musculus with 92 samples.

Results

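The genes described are those of the proteasome, taken as every gene whose symbol starts with Psma, Psmb, Psmc, Psmd, Psme, Psmf or Psmg followed by a number. The rule found 48 of the 13441 genes in the deposited table, and 0 lines carried the suffix of a pseudogene copy. Of these, 7 encode the alpha ring of the 20S core, 7 its constitutive beta ring and 3 the immune beta subunits. Another 6 encode the ATPases of the 19S base, 3 the other base subunits and 8 the 19S lid. The remaining members were 3 base chaperones, 4 core chaperones, 4 activators and 1 inhibitor, with 2 genes that match by name and are not subunits (Psmc3ip and Psme3ip1). Psma8, Psmb11 and Psme2b were not analysed here.

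RNA came from the quadriceps of 92 DOz mice, an outbred stock in which each animal has its own combination of inherited alleles. All animals were about 18 to 20 weeks old and had eaten chow, so there is 1 group, and the comparisons are between genes and across animals. Each animal gave 1 sample. Values are log2 expression scaled to library size, and the read depth is unknown because no counts were used. The tissue's own markers led: 5 of 5 skeletal muscle markers were measured, with a summed level between log2 15.5 and 16.2. Genotypes and the study's lipid and insulin measurements were not analysed here.

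The proteasome is the main protease of the cytosol and nucleus and degrades proteins tagged with ubiquitin. Its 20S core is a barrel of alpha rings around beta rings, of which Psmb5, Psmb6 and Psmb7 carry the active sites, and the 19S cap recognises, unfolds and feeds in the substrate. In cells exposed to interferon the active subunits can be replaced by Psmb8, Psmb9 and Psmb10, which gives the immunoproteasome and changes the peptides offered on MHC class I. In skeletal muscle the ubiquitin-proteasome system is a main route of myofibrillar protein loss in atrophy, and the transcription factor Nfe2l1 is known to raise the subunit genes when proteasome activity is limiting.

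Promoter windows from RefSeq (GRCm38.p6, 250 bases before to 50 after the start) were found for 41 of the 48 genes. Psmb1, Psmb2, Psmb7, Psmc3, Psmd3, Psmd7 and Psmg2 had no window and were not searched. A pattern of the antioxidant-response type bound by Nfe2l1 and small Maf proteins (TGACNNNGC, either strand) was held by 6 of these windows (14.6%), against 12.5% of all 27025 windows. The pattern of the interferon-stimulated response element (GAAA, 2 free bases, GAAA) was held by 5 (12.2%), against 3.49% of all windows. The holders were Psmd4, Psmd9, Psmb3, Psmg4 and Psme1, none of them an immune beta subunit. In Psmg4 and Psme1 the match lies after the start. That of the gamma-activated site (TTCNNNGAA) was held by 3 (7.32%), against 8.47%. Matches were counted on both strands, and a match describes letters, not a bound site. The stretches below are shown because they hold the matches in 2 constitutive active subunits and in the immune subunit on which the results turn, with the matching bases in capitals. They are read 5′ to 3′ on the gene's strand, stop before any annotated exon for Psmb5 and Psmb6, and are limited for Psmb8 to the match and its nearest bases. The Psmb8 match lies inside an annotated exon, since all 250 bases before its RefSeq start are exonic in GENCODE.
Psmb5 (chr14:54618023-54618245, minus strand): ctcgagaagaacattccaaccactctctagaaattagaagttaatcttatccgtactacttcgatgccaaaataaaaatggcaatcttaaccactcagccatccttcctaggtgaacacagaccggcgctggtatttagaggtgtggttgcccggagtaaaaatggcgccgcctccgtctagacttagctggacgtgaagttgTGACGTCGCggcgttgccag
Psmb6 (chr11:70525107-70525356, plus strand): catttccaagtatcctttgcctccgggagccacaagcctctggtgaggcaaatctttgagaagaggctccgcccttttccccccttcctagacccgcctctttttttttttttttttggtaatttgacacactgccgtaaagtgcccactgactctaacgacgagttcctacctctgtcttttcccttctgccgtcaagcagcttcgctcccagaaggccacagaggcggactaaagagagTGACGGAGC
Psmb8 (chr17:34198088-34198116, plus strand): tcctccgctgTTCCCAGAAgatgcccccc
The match in Psmb5 begins 47 bases before the RefSeq start, that in Psmb6 9 bases before it and that in Psmb8 97 bases before it. The Psmb9 window held none of the 3 patterns. It is shared with Tap1, the peptide transporter of class I presentation, which runs in the opposite direction: the 2 windows have 275 bases in common and the 2 start sites lie 226 bases apart. The annotated first exons of Psmb9 and Tap1 overlap on opposite strands, and because strand use in counting is not stated, reads from that overlap cannot be told apart.

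The constitutive subunits were abundant and varied little between animals. Per kilobase of merged exons, the median of the mean log2 levels of the 31 constitutive 20S and 19S genes was 5.08, against 1.30 over the 13255 genes with a length, and all 31 lay above that median. Over the 48 members the median SD between animals was 0.17, against 0.32 over all genes. All 31 constitutive 20S and 19S genes had an SD below the median of all genes. For 30 of them it was also below the trend of SD on mean level, as it was for 6856 of the 13441 genes. The exception was Psmd8, a lid subunit (SD 0.30, from 6.46 through 7.23 to 7.90). The steadiest were Psmd13 (SD 0.11) and Psmd12 (SD 0.12), both lid subunits, and Psma2 of the alpha ring (SD 0.13). Psmd13 lay between 5.34 and 5.91 with a median of 5.63, a 1.48-fold range over all 92 animals.

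Whether the deposited values already account for gene length is not stated. They were taken not to, so levels were compared between genes per length, here per kilobase of merged exons. In the alpha ring, the gate and outer wall of the core, Psma6 was highest (log2 6.22) and Psma2 lowest (4.0), although the ring holds each protein in equal number. In the constitutive beta ring Psmb7 was highest (5.46) and Psmb1 lowest (4.12). Among the ATPases that unfold substrates, Psmc5 was highest (5.94) and Psmc2 lowest (4.33), and in the rest of the base Psmd2, a scaffold and ubiquitin-like-domain receptor, was highest (5.88) and Psmd1 lowest (4.66). In the lid, which removes ubiquitin through Psmd14, Psmd7 was highest (5.86) and Psmd13 lowest (3.87). The genes of the core and cap thus lay within a band from 3.87 to 6.22. A gene's merged exons can hold stretches that muscle does not use, so these differences also depend on the length chosen. Per kilobase of coding sequence the extremes became Psma3 (7.33) and Psma5 (5.70) in the alpha ring, with Psma2 at 6.39, and Psmc3 (6.72) and Psmc4 (5.68) among the ATPases. Psmb5 (5.56) was then lowest in the beta ring and Psmd8 (7.15) highest in the lid, while Psmb7, Psmd2, Psmd1 and Psmd13 kept their places.

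Assembly factors and the inhibitor lay below that band. The base chaperones Psmd10, Psmd5 and Psmd9 had means per length of 2.25, 1.19 and 0.57, and the core chaperones ranged from Psmg2 at 3.26 down to Psmg3 at 0.43. Per coding length the order of the base chaperones turned, with Psmd9 at 4.02, Psmd5 at 3.44 and Psmd10 at 3.33, and the lowest core chaperone was Psmg4 (2.78), Psmg3 standing at 3.41. Psmf1, the inhibitor PI31, stood at 1.29, or 4.27 per coding length. The activators spanned a wide range. Psme4, which encodes PA200, had the highest unscaled level of all members (8.73 ± 0.24 SD, n = 92) and stood at 5.66 per length. Psme3, the nuclear PA28-gamma, stood at 4.47, Psme1 at 3.98 and Psme2 at 3.09; the last 2 form the interferon-inducible PA28 cap. Per coding length Psme3 (6.42) stood above Psme4 (6.26), with Psme1 at 5.55 and Psme2 at 4.39.

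**Figure D1:**
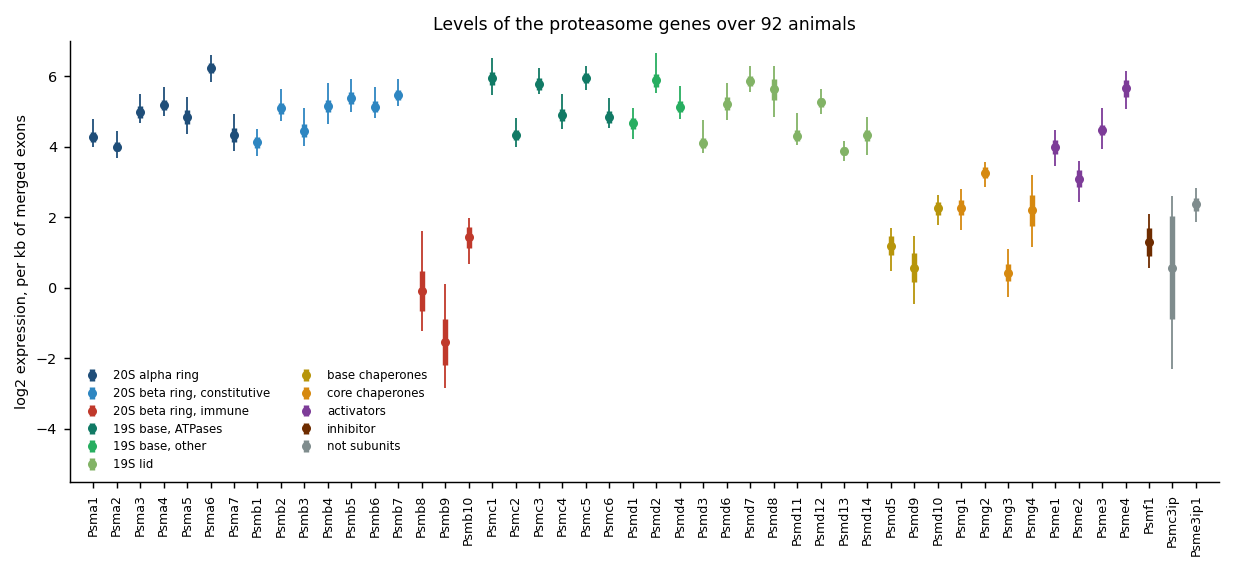
Mean level of each of the 48 genes, in log2 expression per kilobase of merged exons (vertical axis), by gene and coloured by role. Points are means, thick bars 1 SD and thin lines the lowest and highest of 92 animals. The 31 constitutive core and cap genes lie between 3.87 and 6.22, and Psmb8, Psmb9 and Psmb10 lie below 1.5, with long lines for Psmb8 and Psmb9.

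The largest spreads belonged to other members. Psmc3ip, a meiotic recombination cofactor that only shares the name, had an SD of 1.46 and took 2 levels. In 38 animals it lay between -1.43 and 0.75 with a median of -0.19, in 54 animals between 1.96 and 3.46 with a median of 2.47, and no animal lay in the step of 1.21 between them. Both levels occurred in each of the 5 blocks of title numbers defined further on, where the lower one held from 3 of 14 to 8 of 11 animals. The gene outside the members with the highest r to it was Naglu (r = 0.43), 0.014 Mb away on chromosome 11, and the most negative was Coa3 (r = -0.52), 0.183 Mb away. Next in spread were Psmb9 (SD 0.65), Psmb8 (SD 0.57), the core chaperone Psmg4 (SD 0.43) and the base chaperone Psmd9 (SD 0.42). Psmg4 ran from 0.32 through 1.35 to 2.34, and Psmd9 from 2.40 through 3.42 to 4.32, without a comparable step.

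The active subunits of the immunoproteasome were expressed far below those they replace. Psmb5, the chymotrypsin-like subunit, lay between 4.83 and 5.76 with a median of 5.23. Psmb8, its immune counterpart (chr17, 34197721 to 34201454, plus strand, GRCm38), lay between 0.53 and 3.36 with a median of 1.53. The 2 ranges did not overlap, and Psmb8 spanned a 7.13-fold range between animals where Psmb5 spanned 1.90-fold. Psmb6, the caspase-like subunit, lay between 5.71 and 6.59 with a median of 6.02. Psmb9 (chr17, 34181987 to 34187764, minus strand), which takes its place, lay between -0.97 and 1.97 with a median of 0.34. Psmb7, the trypsin-like subunit, lay between 6.93 and 7.68 with a median of 7.23. Psmb10 (chr8, 105935735 to 105938444, minus strand), which replaces it, lay between 1.45 and 2.74 with a median of 2.25, and was the steadiest of the 3 immune genes (2.45-fold range).

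Within each animal and per length, Psmb8 was below Psmb5 by a mean difference of -5.48 ± 0.61 on the log2 scale (SD, n = 92). For Psmb9 minus Psmb6 the difference was -6.67 ± 0.67, and for Psmb10 minus Psmb7 it was -4.03 ± 0.31. Without length scaling the 3 differences were -3.57, -5.70 and -5.03, so the smallest was then that of Psmb8 and Psmb5. Each immune gene was lower in 92 of 92 animals. A two-sided sign-flip permutation test gave 1e-05 for every pair, before and after Benjamini-Hochberg adjustment over the 3 pairs, which is the smallest p that 100000 resamples can give. As a share of its pair, Psmb8 made up a median of 2.02% (0.901% to 6.16%), Psmb9 0.963% (0.324% to 3.42%) and Psmb10 5.87% (3.76% to 8.40%). The shares depend on the length used: per coding length the medians were 6.90%, 2.02% and 3.06%, and Psmb10 was then no longer the largest.

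Per merged length the order was Psmb7, Psmb5, Psmb6, Psmb10, Psmb8, Psmb9. Psmb7 exceeded Psmb5 by 0.08 ± 0.13, in 72 of 92 animals, a difference within its own spread, but with coding length by 1.94 ± 0.13 and with the longest transcript by 1.64 ± 0.13, in 92 of 92 animals each. Psmb5 exceeded Psmb6 in 89 of 92 animals, but with coding length Psmb6 exceeded Psmb5, by 0.96 ± 0.13, so the order of these 2 rests on the length. The steps below them did not change place: Psmb6 or Psmb5 above Psmb10 in 92 of 92 animals with any length, Psmb10 above Psmb8 in 92 of 92 (76 of 92 with coding length), and Psmb8 above Psmb9 in 92 of 92 (90 of 92).

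**Figure D2:**
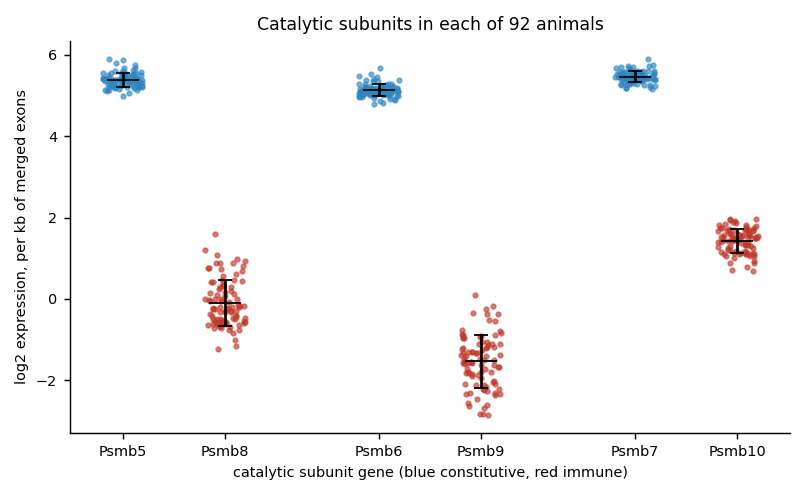
Level of the 6 genes for active subunits in each of 92 animals (points), in log2 expression per kilobase of merged exons, as 3 pairs of a constitutive gene (blue) and its immune counterpart (red). Black marks are means and SD; in no pair do the constitutive and immune values overlap.

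The constitutive core and cap genes went up and down together across the animals. Over the 465 pairs among the 31 genes, Pearson's r had a median of 0.53 and was positive in 463, where the median over all 90323520 gene pairs of the table was -0.0014. Within the 20S core the median was 0.59, with all 91 pairs above 0, within the 19S cap it was 0.51, and between core and cap it was also 0.51. The highest r was between Psmd2 and Psmd4, both substrate-recognition subunits of the base (r = 0.86), followed in the core by Psma4 and Psmb1 (r = 0.80). With the table's first 3 principal components removed the median over all pairs fell to 0.37, and with 6 cell type marker scores removed to 0.43. These pairs share the 92 animals and their genes, so the r values are a description and carry no test.

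Looked at gene by gene over the whole table, 24 of the 31 had another proteasome gene as their nearest gene by r, and 27 had at least 5 of the other core and cap genes among their 10 nearest. All 10 nearest genes of Psma5, an alpha ring subunit, were core or cap genes. Psmb5 was unlike the rest: 0 of its 10 nearest were members, and the 5 nearest included Eif3i (r = 0.74), a translation initiation factor, Mrpl23 (0.72), a mitochondrial ribosomal protein, and Atp5mc2 (0.71), a subunit of the ATP synthase. It also had the most negative r of the 31 with the first principal component (-0.73), which holds 8.38% of the table's variance. Psmd8 was the other outlier, with a median r of 0.26 with the other 30 and 0 members among its 10 nearest. With the 3 principal components removed its median was -0.02, negative with 16 of the 30.

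The members outside the core and cap did not share this pattern to the same degree. The median r of a gene with the 31 was 0.41 for the core chaperone Psmg2 and 0.25 for its partner Psmg1, but 0.16 for Psmg3 and 0.05 for Psmg4. It was 0.17, 0.15 and 0.04 for the base chaperones Psmd5, Psmd10 and Psmd9, and 0.12 for the inhibitor Psmf1. Among the activators it lay between -0.09 (Psme1) and 0.09 (Psme2). Psme1 and Psme2, whose proteins form 1 ring, had an r of 0.06 with each other. Psmb8 and Psmb9 had medians of -0.12 and -0.14, and Psmb10 of 0.07.

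**Figure D3:**
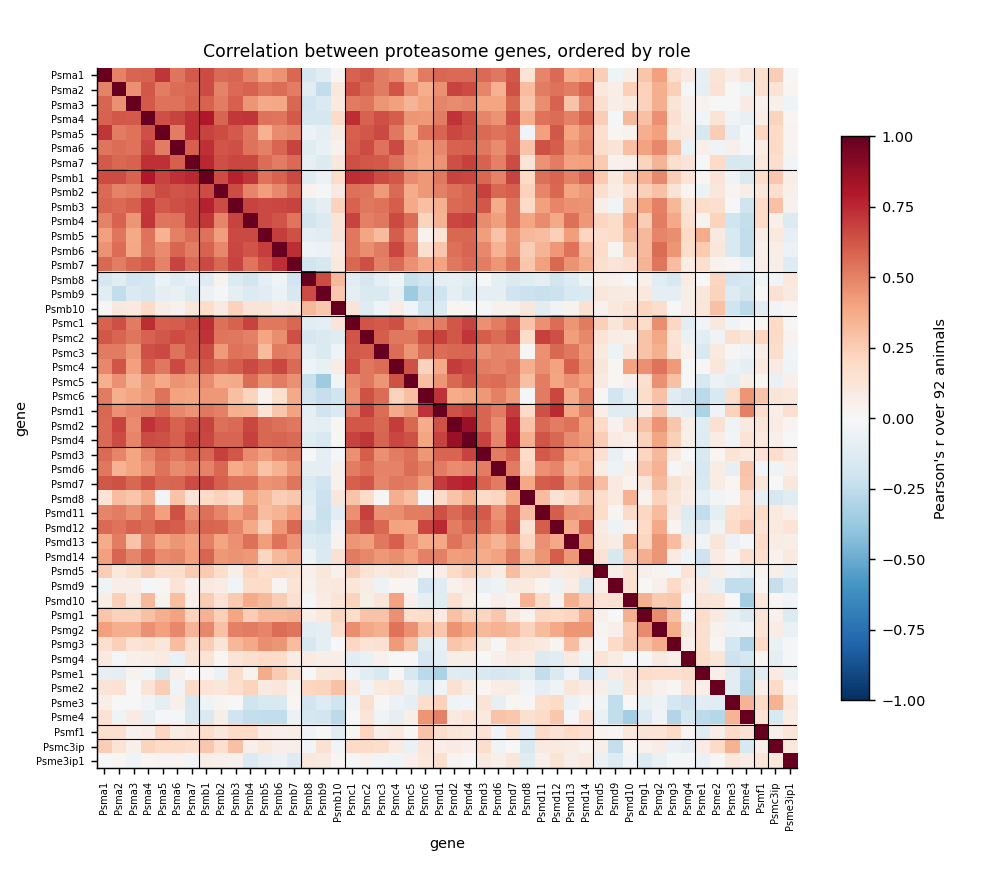
Pearson's r over 92 animals between every 2 of the 48 genes, on both axes in order of role with lines between roles (colour scale from -1, blue, to 1, red). The blocks of the alpha ring, constitutive beta ring, ATPases, base and lid are mostly red, Psmd8 being the palest, and the rows of Psmb8 and Psmb9 are pale blue against them and red against each other.

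The size of the shared movement was measured with a linear model for each gene (limma, Benjamini-Hochberg adjustment over all genes tested, threshold 0.05), in which the slope is the change in log2 level per SD of a predictor gene. With Psmb5 as predictor, 31 of the 47 other members rose and 0 fell, where 13.9% of all genes rose and 29.2% changed in either direction. All 7 alpha ring genes and all 6 other constitutive beta genes rose, as did 5 of 6 ATPases, 6 of 8 lid genes and 3 of 4 core chaperones. Among the called members the largest slopes were those of Psmb3 (0.13 ± 0.02 SE) and Psmg3 (0.11 ± 0.02), with limma adjusted p of 5.37e-10 and 1.17e-04. The slope of Psmb4 was 0.11 ± 0.01, that of Psma7 0.11 ± 0.02 and that of Psmb6 0.10 ± 0.01. None of the 3 immune subunits passed (Psmb8 -0.05, Psmb9 -0.07, Psmb10 0.04). With 3 principal components as covariates 0 members passed, and 0 of all genes. The slopes of Psmb3, Psmg3, Psmb4, Psma7 and Psmb6 were then 0.07, 0.05, 0.04, 0.07 and 0.03. With the marker scores 22 members were called (21 rose and 1 fell), where 19.4% of all genes were. Psmb5 itself had an r of 0.40 with the fast fibre score and -0.39 with the adipocyte score. With Psma3, an alpha ring gene used in its place after the values were seen, 29 members rose, where 3.63% of all genes did.

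Another predictor, Psmd1, the large scaffold of the base, was added after the values were seen. Its r was 0.09 with the first principal component, -0.53 with the second, 0.16 with the third and 0.14 with Psmb5. With Psmd1, 28 of 47 members rose and 1 fell, where 5.85% of all genes rose and 5.20% fell. These were all 7 alpha ring genes, all 6 ATPases, both other base subunits, 7 of 8 lid genes and 5 of 7 constitutive beta genes, with the activator Psme4. Psmc6 rose by 0.12 ± 0.01 per SD (limma adjusted p = 4.67e-12), Psme4 by 0.12 ± 0.02, Psma5 by 0.12 ± 0.02, and Psmd2 and Psmd4 by 0.11 ± 0.01 each. With the principal components the slope of Psme4 was 0.08. Psme1 had risen with Psmb5 (0.07 ± 0.02, limma adjusted p = 0.00215) but fell with Psmd1, by 0.06 (SE 0.02, limma adjusted p = 0.0291). The fall did not pass the threshold without the 2 animals farthest from the median of Psmd1 (slope -0.05, adjusted p = 0.102). With the marker scores the slope of Psme1 on Psmd1 was -0.12 (limma adjusted p = 0.000548) and with the principal components -0.08 (0.0156). Psmb5 and Psmb6, both constitutive, did not pass (slopes 0.02 and 0.04). Here the 3 principal components left 27 members called, where 3.39% of all genes were, and the marker scores left 21, where 1.58% were.

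Genes that work with the proteasome moved with Psmd1 as well. Of 24 partners, 15 rose and 0 fell, where 5.85% of all genes rose. Vcp, the segregase that extracts ubiquitinated proteins from complexes, was the nearest gene of all (r = 0.80; 9.13 ± 0.12 SD). Txnl1, a thioredoxin bound to the 19S cap, rose by 0.14 ± 0.01 per SD (limma adjusted p = 2.82e-12). Ecpas, a proteasome adaptor, rose by 0.11 ± 0.02, Nploc4, a Vcp cofactor, by 0.11 ± 0.02, and Ddi2, the protease that activates Nfe2l1, by 0.13 ± 0.04. The call for Ddi2 was lost with the principal components (slope 0.10, limma adjusted p = 0.155) and with the marker scores (0.09, 0.339), and the slope of Ecpas was 0.07 with the principal components (0.0418). Of 15 muscle ubiquitin ligases 5 rose, led by Fbxo32, the atrophy ligase atrogin-1 (0.20 ± 0.04), and Asb2 (0.13 ± 0.03), but neither passed with the marker scores as covariates (slopes 0.13 and 0.06, adjusted p = 0.198 and 0.232) or with the principal components (slopes 0.10 and 0.08, adjusted p = 0.269 and 0.0794). Markers of other cells moved in the same fit: 11 of 12 leukocyte markers and 4 of 8 fibroblast markers fell, while 5 of 9 fast fibre markers rose and 1 fell. Once the 6 marker scores were in the model, 9 of 24 partners and 1 of 15 ligases rose, where 0.975% of all genes did. Beyond that, the part of cell makeup in these slopes was not tested. In whole muscle, fewer cells of a type and less RNA per cell cannot be told apart.

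Nfe2l1 itself lay between 8.45 and 9.51 with a median of 9.01, and 1 member passed in its fit. Its r with Psmb5, Psmb6 and Psmb7 was -0.12, -0.06 and 0.03, with permutation p of 0.239, 0.584 and 0.812 and adjusted p over the 39 relations tested of 0.334, 0.633 and 0.833. In the fit on Nfe2l1 1 of 48 members was called and it rose, where 1.93% of all genes were called and 1.33% rose, and 12 (8 positive and 4 negative slopes) had an unadjusted p under 0.05, as had 18.1% of all genes. The called gene was Psme4 (0.08 ± 0.02, limma adjusted p = 0.0431), which did not pass without the 2 animals farthest from the median of Nfe2l1 (0.0655), with the marker scores (0.167, where 0.327% of all genes were called) or with the principal components (0.816). Its slopes in these 3 fits were 0.08, 0.07 and 0.02. The other positive slopes with an unadjusted p under 0.05 all belonged to cap genes. These were Psmd1 (0.05, limma adjusted p = 0.0601), Psmd12 (0.04, 0.0647), Psmd7 (0.04, 0.0705), Psmc6, Psmd11, Psmd14 and Psmd3. The negative ones were those of Psmb8 (-0.16), Psmb9 (-0.13), Psme1 (-0.06) and Psmg1 (-0.06). Of 23 partners 4 rose (Rad23b, Nploc4, Ufd1 and Vcp), Rad23b by 0.07 ± 0.02. None of these 4 passed with the principal components (limma adjusted p from 0.399 to 0.621), where their slopes were 0.02 to 0.04. With the marker scores Vcp alone did (0.0328), while the slopes of Nploc4 (0.07) and Rad23b (0.06) stayed close to their first values of 0.07. The 5 genes nearest to Nfe2l1 all lay within 2.66 Mb of it on chromosome 11, led by B230206L02Rik (r = -0.69). Nfe2l1 is known to be controlled largely through its protein, which was not measured.

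Psmb8 and Psmb9 went up and down together, and with genes of the interferon response and of class I presentation. Between Psmb8 and Psmb9 r was 0.65 (rho 0.61, permutation p 1e-05 for both, adjusted 3e-05 and 3.9e-05), 0.60 without the 2 animals farthest from the median of Psmb8, and between 0.60 and 0.75 within blocks. The blocks are 5 sets of animals (33, 14, 21, 11 and 13) defined by gaps in the number in each sample's title; what the number records is not stated. Psmb10 was linked more loosely, with r of 0.33 to Psmb8 (adjusted permutation p = 0.00399) and 0.27 to Psmb9 (0.0174), and within blocks r ran from 0.03 to 0.78 and from 0.06 to 0.59. Without the 2 farthest animals these were 0.28 and 0.23, and the second no longer passed (adjusted p = 0.0512). No relation of an immune gene to its constitutive counterpart passed: r was -0.09 for Psmb8 and Psmb5, -0.06 for Psmb9 and Psmb6 and 0.10 for Psmb10 and Psmb7 (adjusted permutation p 0.481, 0.633 and 0.406). Over the 93 pairs of an immune with a core or cap gene, r was negative in 69, with a median of -0.10. With the marker scores removed the median was 0.0086 and 42 were negative.

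Of the 39 relations computed, 22 passed after Benjamini-Hochberg adjustment, and 17 of these had the same sign in all 5 blocks. The strongest for Psmb8 was B2m, the light chain of class I (r = 0.74, rho 0.69, adjusted permutation p = 3e-05). Without the 2 farthest animals r was 0.69, within blocks 0.34 to 0.86. Psmb8 was also related to its chromosomal neighbour Tap1 (r = 0.60, rho 0.54), to Nlrc5, the class I transactivator (0.54, rho 0.48), and to Irf1 (0.49, rho 0.43). These 3 had the same adjusted permutation p of 3e-05 for r and kept r of 0.54, 0.51 and 0.43 without the 2 farthest animals. Psmb9 showed the same relations, with r of 0.59 to B2m, 0.54 to Tap1, 0.46 to Nlrc5 and 0.44 to Irf1, although that with Nlrc5 was -0.07 in 1 block. Psmb10 was related to Tap1 (0.31), Nlrc5 (0.30), Psme2 (0.29) and B2m (0.29), but not past the threshold to Irf1 (0.17, adjusted permutation p = 0.17). Its r fell as low as -0.23 with Nlrc5 and -0.27 with B2m in 1 block each. Psme1 showed no relation past the threshold with any of the 3 immune genes (-0.01, 0.11 and 0.12). Psme2 reached 0.21 with Psmb8 and 0.22 with Psmb9 (adjusted permutation p = 0.0685 and 0.0557), and without the 2 farthest animals that with Psmb9 passed (r = 0.26, adjusted permutation p = 0.0269).

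Leukocyte markers varied with the same genes. The mean standardised level of 12 leukocyte markers had an r of 0.38 with Psmb8 (rho 0.36, adjusted permutation p = 0.000756) and 0.41 with Psmb9 (rho 0.38, 0.00013), but was -0.11 in 1 block for each. The summed level of these markers ran from log2 6.13 through 7.19 to 9.78, and all 12 were detected. With Psmb10 it was 0.13 (0.318), and the endothelial score did not pass with any of the 3 by r. By rank it passed with Psmb8 (rho 0.24, adjusted permutation p = 0.0332, against 0.0959 for r of 0.20). With 6 marker scores removed, Psmb8 kept an r of 0.69 with B2m, 0.57 with Psmb9, 0.55 with Nlrc5, 0.55 with Tap1 and 0.35 with Irf1. In all, 20 of the 20 relations that passed and involve no score passed again with the scores removed.

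**Figure D4:**
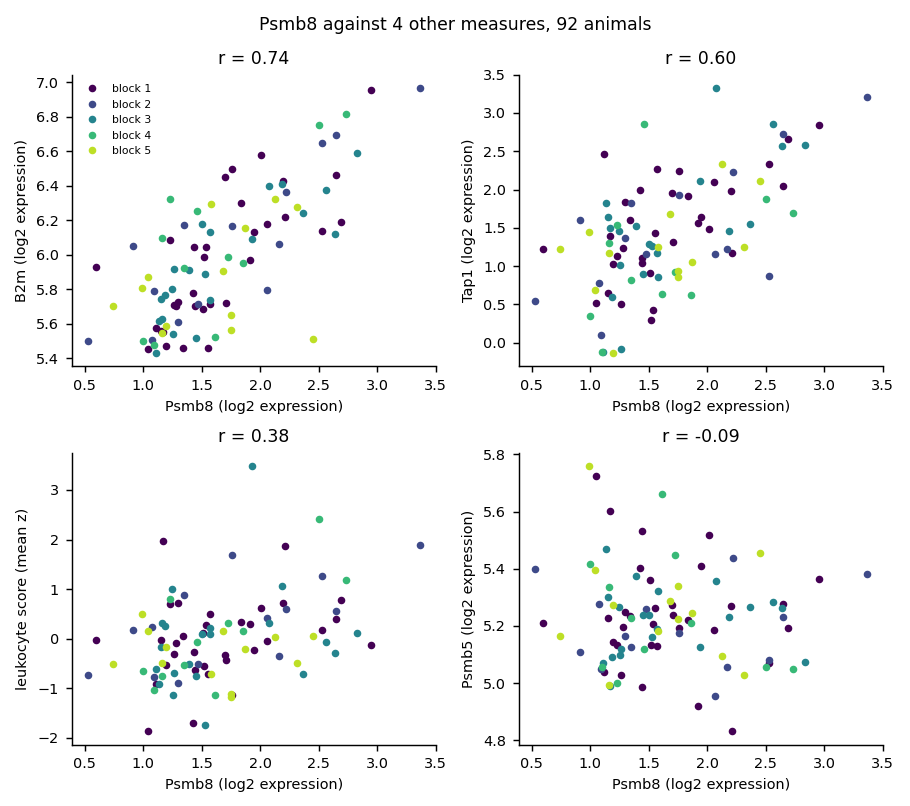
Psmb8 (horizontal axes, log2 expression) against B2m, Tap1 and Psmb5 (log2 expression) and the leukocyte score (mean standardised level of 12 markers), with 1 point per animal coloured by block of title numbers. Animals high in Psmb8 are high in B2m (r = 0.74) and Tap1 (0.60), less so in the leukocyte score (0.38), and r with Psmb5 is -0.09.

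In the fit across all genes with Psmb8 as predictor, 1 of the 47 other members was called and it rose, where 1.77% of all genes were called and 1.63% rose. With the principal components as covariates it was again 1 member, where 0.387% of all genes were called. The gene was Psmb9, which rose by 0.42 ± 0.05 per SD (limma adjusted p = 2.59e-09), or by 0.25 with log2(value + 1), which compresses low levels. Psmb10 (0.10 ± 0.03, adjusted p = 0.0713) and Psme2 (0.05 ± 0.02, 0.337) were among 4 members with an unadjusted p under 0.05, which 13.9% of all genes had. None of the 31 core and cap genes, 24 partners, 6 genes of ubiquitin supply or 15 ligases was called. By contrast 18 of 23 interferon response genes and 8 of 13 class I genes rose and 0 fell. Tgtp1, an interferon-induced GTPase, rose by 0.81 ± 0.12, Iigp1 by 0.57 ± 0.08, Nlrc5 by 0.54 ± 0.09, Tap1 by 0.45 ± 0.06 and H2-D1, a class I heavy chain, by 0.30 ± 0.03. With log2(value + 1) the slope of Nlrc5 was 0.35. Of the leukocyte markers 7 of 12 rose. When the marker scores were added to the model, 11 interferon and 6 class I genes were called, where 0.26% of all genes were. The genes nearest to Psmb8 outside the members were Gbp2 (r = 0.75), a guanylate-binding protein, H2-D1 (0.75), B2m (0.74), Cd274 (0.72), which encodes PD-L1, and H2-Q4 (0.67). Those nearest to Psmb9 were H2-Q4, Gbp2, B2m, Cd274 and H2-K1, with r from 0.63 to 0.54. H2-D1, H2-Q4 and H2-K1 lie within 1.2 Mb of them on chromosome 17. For Psmb10 no gene passed 0.5 in size, and the nearest was Papolg (r = -0.49).

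Of the 10 animals highest in Psmb8, 7 were among the 10 highest in Tap1, 6 in B2m, 6 in Gbp2, 5 in Psmb9, 3 in Psmb10, 3 in Psme2 and 1 in Psme1. These counts were not tested, and the overlap between unrelated genes was not computed.

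**Figure D5:**
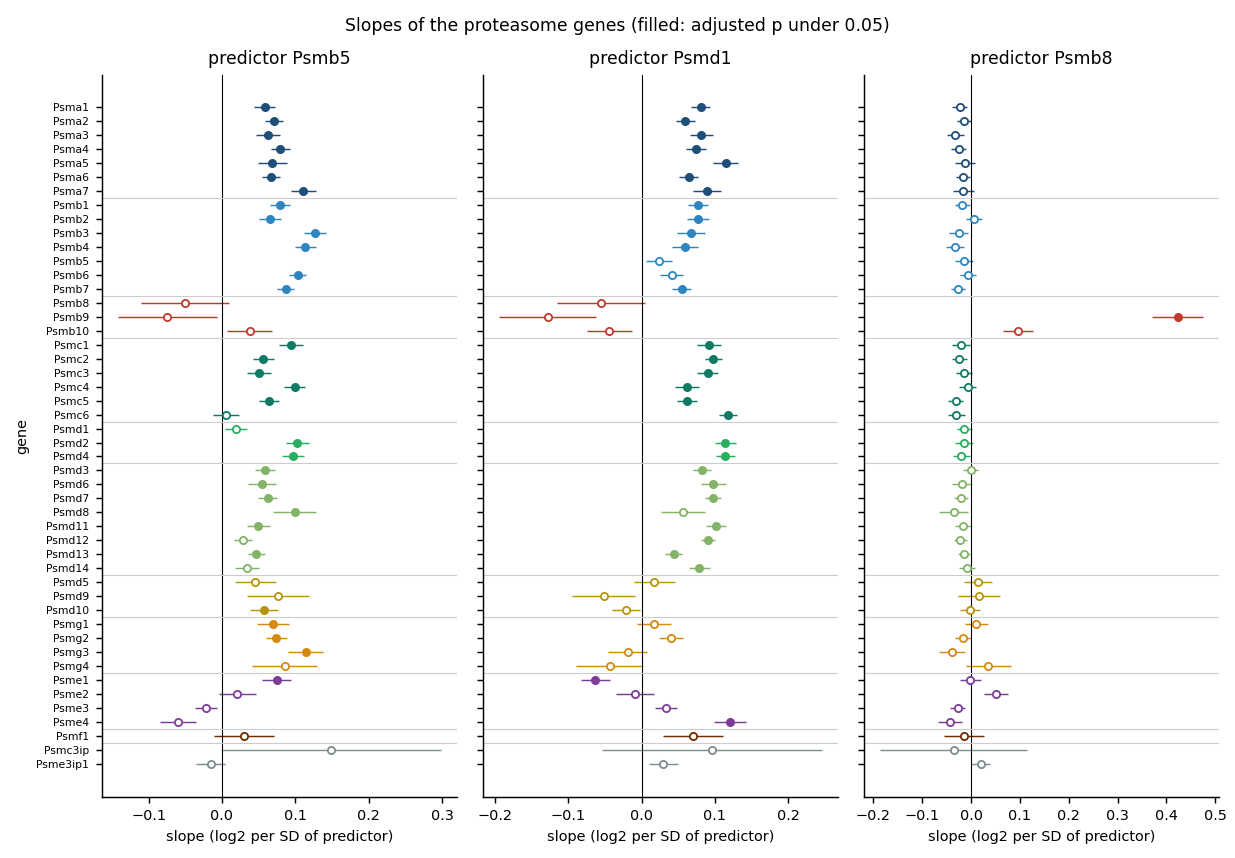
Slope of each gene (rows, ordered and coloured by role) in log2 per SD of Psmb5, Psmd1 or Psmb8 (panels), with its SE; filled points passed the adjusted threshold of 0.05 in limma. With Psmb5 and with Psmd1 the core and cap genes lie to the right of 0, most of them filled, and with Psmb8 only Psmb9 is filled.

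The contrast between the 2 sets of genes was tested directly by fitting Psmb8 and Psmb5 in 1 model and testing the difference of their slopes. Of 46 members 29 were called, 1 upward and 28 downward, where 20.0% of all genes were called, 10.4% upward and 9.56% downward. Psmb9 followed Psmb8 more than Psmb5 (difference 0.46 ± 0.07, limma adjusted p = 1.94e-06, or 0.26 with log2(value + 1)), and 28 followed Psmb5 more. Among the called members, Psmb3 (-0.14 ± 0.02), Psmb4 (-0.13 ± 0.02) and Psma7 (-0.12 ± 0.02) of the core, Psmd8 (-0.12 ± 0.04) of the lid and the chaperone Psmg3 (-0.14 ± 0.03) had the most negative differences. With the 3 principal components as covariates 1 member was called (Psmb9), where 0.0372% of all genes were, and Psmd8 changed sign (0.01). The differences of Psmb3, Psmb4, Psma7 and Psmg3 were then -0.08, -0.06, -0.06 and -0.09. With the marker scores 12 members were called, 2 upward and 10 downward, where 10.8% of all genes were, and Psmd8 did not pass (limma adjusted p = 0.169). Psmb10 was not called (0.05, limma adjusted p = 0.361).

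No member differed between the 5 blocks of title numbers by limma's moderated F test with adjusted p under 0.05. In that test 0.0149% of all genes were called, and 3 members had an unadjusted p under 0.05, as had 8.33% of all genes: Psmg4 (0.00786), Psmd11 (0.0139) and Psmc5 (0.0463).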

How the data were processed

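The table holds 13456 lines, of which 15 repeat another line; 13441 genes in 92 samples were used. Per the submitters' processing notes the software included bcl2fastq, MultiQC, kallisto 0.50.1 and edgeR with the build mm10; their roles and settings are not given in the sources used here. Per the labels' protocols, libraries came from 500 ng of RNA with the KAPA mRNA kit. The deposited values are log2 values on a scale close to CPM, read from the values themselves, whose sums over genes after raising 2 to each value lie between 898071 and 1140761. Depth and the rounding of low values are therefore unknown, and the precision rests on the number of animals.

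Slopes, the difference of slopes and the block F test were fitted with limma 3.58.1 (trend, empirical Bayes; R 4.3.3) over all genes, with Benjamini-Hochberg adjustment and a threshold of 0.05; count tests had been planned in case the table held counts. The script was tested on simulated data. The 39 correlations and 3 paired differences used permutation tests of 100000 resamples (numpy 2.4.6). One planned predictor gene is not reported here; its relations stay in the adjustment and the counts. Lengths and positions come from GENCODE M21 (GRCm38, the same assembly as mm10) and promoters from RefSeq. Named genes are Psmb5 to Psmb10, the extremes per length and in SD, up to 5 called members in each direction per fit, up to 4 called genes of a list, and the 5 nearest genes of Psmb5, Psmb8, Psmb9 and Psmb10; genes outside this rule, such as the neighbours of Psmd1, Nfe2l1 and Psmc3ip, were named after their values were seen. Cell type markers are given by count. Marker scores are mean standardised levels of the leukocyte, endothelial, fibroblast, adipocyte, fast fibre and slow fibre lists. The members and lists were chosen with earlier results of these data known. Alternatives covered title-number blocks, principal components, marker scores, log2(value + 1), a mean of at least 1, leaving out the 2 farthest animals, no trend, ranks and other gene lengths. The labels do not say that samples share litters or cages.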

Additional observations from a re-analysis of the deposited data

How the results depend on the processing

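The count of members called changed by more than 1.5 times in these cases. With the first 3 principal components as covariates it was 0 in the fit on Psmb5 (main 31), 0 in the fit on Nfe2l1 (main 1) and 1 in the difference of slopes on Psmb8 and Psmb5 (main 29). With the marker scores it was 0 in the fit on Nfe2l1 and 12 in the difference of slopes. Without the 2 farthest animals it was 0 in the fit on Nfe2l1. With log2(value + 1) it was 2 in the fit on Psmb8 (main 1). With genes of a mean under 1 left out, which removes Psmb9 from the test, it was 0 in the fit on Psmb8. The median pairwise r of the 31 core and cap genes was 0.3734 with the principal components removed. Among the 43 slopes of named genes 1 reversed, Psmd8 in the difference of slopes with the principal components (0.0083, limma adjusted p = 0.989), where 23 others no longer passed; with the marker scores 14 of the 43 no longer passed, and with the blocks as covariate none was lost. The causes were not tested. The paired differences kept their direction in 92 of 92 animals under all lengths tried.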
